A study of Homo sapiens with 6 samples.

Results

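The PTP4A family, also called phosphatases of regenerating liver (PRL), was followed in A375 cells after treatment with BMH-21. Its members are the 3 genes PTP4A1 (PRL-1), PTP4A2 (PRL-2) and PTP4A3 (PRL-3), which were taken by symbol from the 25548 gene rows of the deposited table. PTP4A1 and PTP4A2 lie on chromosomes 6 and 1, and PTP4A3 lies on chromosome 8. A375 is an established melanoma line of human origin with a BRAF mutation. BMH-21 blocks RNA polymerase I, which makes ribosomal RNA in the nucleolus. Of the 6 samples, 3 had 1 µM BMH-21 over 6 h, and the 3 controls had DMSO and are titled 0 h. All cells were grown in DMEM with serum. BMH-21 therefore cannot be told apart from 6 h of further culture, and the words "with BMH-21" cover both.

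PTP4A proteins are small tyrosine phosphatases with a single catalytic domain, in which a cysteine attacks the phosphate and an arginine holds it. They end in a CAAX box, a 4-residue tail that begins with a cysteine, to which a lipid is attached so that the protein reaches membranes. They bind the CNNM proteins, which act in magnesium transport, and PTP4A3 in particular is known for its link to metastasis in colorectal cancer and uveal melanoma.

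The coding sequence around the catalytic cysteine is shown for the members with the highest levels, because it shows how closely the genes resemble each other and where they can still be told apart. The stretches come from GENCODE release 29 (GRCh38). They run 5′ to 3′ on the coding strand, and capitals mark the codons of the catalytic cysteine and of the arginine that binds phosphate. In both genes an intron splits the stretch, which lies within chr6:63579006-63579257 on the plus strand for PTP4A1 and chr1:31910112-31911718 on the minus strand for PTP4A2.
PTP4A1 signature: catTGCgttgcaggccttgggAGA
PTP4A2 signature: catTGTgttgcaggattgggaAGG
Over these 24 bases the genes differ at 6 positions, counted from the first base, with PTP4A1 first: C6T, C15A, C16T, T18G, G21A and A24G. The CAAX box is shown next with the stop codon, and capitals mark the codon of the cysteine that carries the lipid. It lies at chr6:63580160-63580174 for PTP4A1 and chr1:31908852-31908866 for PTP4A2.
PTP4A1 tail: TGTtgcattcaataa
PTP4A2 tail: TGCtgtgttcagtag
Across the whole coding sequence, PTP4A1 and PTP4A2 were identical at 76.6% of aligned bases, PTP4A1 and PTP4A3 at 69.0%, and PTP4A2 and PTP4A3 at 68.3%.

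The table gave 3 values per gene and group in FPKM (fragments scaled to transcript length and library size). They are titled as replicates 1 to 3, but where none was 0, the first lay midway between the second and the third in 99.9% of rows of each group. It was therefore taken as the group estimate, with the second and the third as its lower and upper bounds by the authors. The confidence level of these bounds is unknown. Values of single libraries were not analysed here, so the spread between replicates is unknown and no p-value is given. The members were chosen by their FPKM estimates in this very comparison, so their differences are descriptions. The sequencing depth is unknown, since FPKM holds no read totals. As a check of the labelled cell type, the melanocyte lineage factor SOX10 was at 90.0 FPKM with BMH-21 and 97.0 FPKM in control, while all 5 listed genes of pigment synthesis and melanosomes, such as TYR and MLANA, lay under 1 FPKM in both groups. Of the 5 measured lineage markers, MITF (5.31 FPKM with BMH-21 and 8.06 FPKM in control) and S100B (17.8 FPKM with BMH-21 and 28.7 FPKM in control) had separate, lower intervals. Over all measured rows this held for 3.41%. PAX3 was at 8.19 FPKM with BMH-21 and 7.02 FPKM in control. S100A1 was at 22.7 FPKM with BMH-21 and 33.2 FPKM in control, with wide bounds that overlapped. Of 10 markers of other cell types, 7 lay under 1 FPKM in both groups and 0 were separate. CD68, also a lysosomal protein, was the highest at 9.96 FPKM with BMH-21 and 14.7 FPKM in control. KRT14 was at 2.16 FPKM with BMH-21 and 1.64 FPKM in control, and PDGFRA at 1.02 FPKM with BMH-21 and 1.22 FPKM in control. Whether these shifts had a part in the PTP4A levels was not tested.

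The members parted in direction. PTP4A1 was higher with BMH-21, PTP4A3 was lower, and the intervals of PTP4A2 overlapped. For PTP4A1 the estimate was 35.6 FPKM with BMH-21 (bounds 28.8 to 42.5), against 20.6 FPKM in control (bounds 16.4 to 24.7). The intervals did not overlap, the estimate being 1.73 times that of control. In RNA from whole cultures, more RNA per cell and more cells that express a gene cannot be told apart. Taken between nearest bounds the ratio was 1.16, and between farthest bounds 2.59. On the log2(FPKM + 1) scale the difference was 0.76 ± 0.39, with a half-width after the sign that joins both groups' bounds as the root of their summed squares.

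PTP4A2 had an estimate of 67.2 FPKM with BMH-21 (bounds 55.3 to 79.1), against 71.0 FPKM in control (bounds 58.2 to 83.8). The ratio was 0.946 and the difference -0.079 ± 0.36 on the log2(FPKM + 1) scale, smaller than its half-width. Ratios between 0.659 and 1.36 lie within the bounds, so the overlap does not show equal levels.

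PTP4A3 was at 0.466 FPKM with BMH-21 (bounds 0.153 to 0.779), against 2.81 FPKM in control (bounds 1.98 to 3.63). The intervals were separate, and the estimate was 6.03-fold lower with BMH-21. Between nearest bounds it was 2.55-fold lower, and between farthest bounds 23.7-fold lower. The difference was -1.38 ± 0.45 on the log2(FPKM + 1) scale, which understates a change at this low level, and -2.59 as a log2 ratio without a pseudocount. Its bounds were the widest of the family relative to the level, at 67.1% of the estimate with BMH-21 and 29.4% in control. The bounds of PTP4A1 and PTP4A2 lay between 17.7% and 20.2% of their estimates in both groups.

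**Figure D1:**
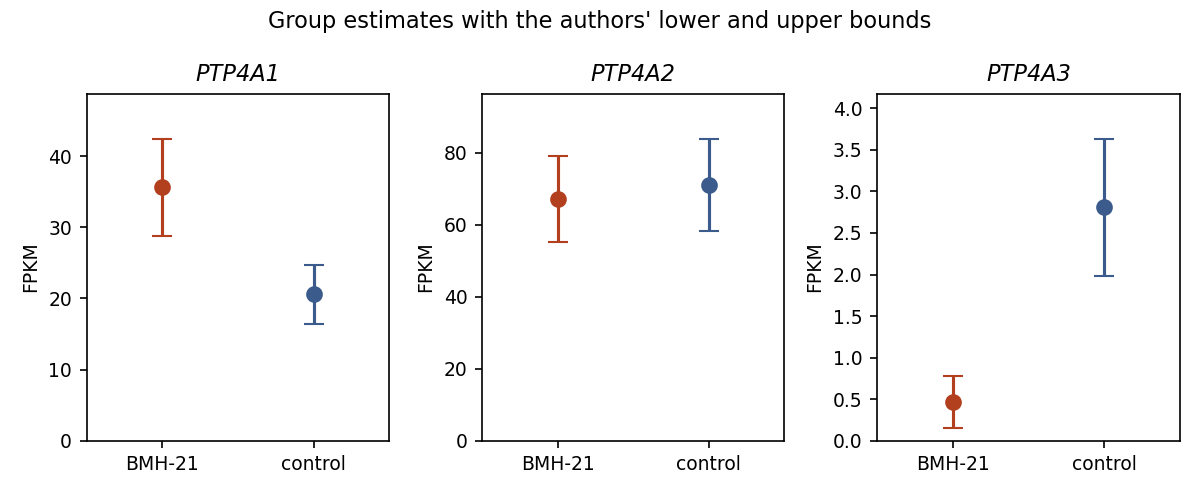
FPKM of PTP4A1, PTP4A2 and PTP4A3 with BMH-21 and in control, on an axis of its own for each gene. Points are the group estimates and bars run from the authors' lower to upper bound: the intervals are separate for PTP4A1 and PTP4A3 and overlap for PTP4A2.

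Over all rows, intervals were separate and higher with BMH-21 in 4.08% of the 13074 measured rows (those reaching 1 FPKM in either group), and separate and lower in 3.41%. On the log2(FPKM + 1) scale, 1.71% of these rows differed by 2-fold or more upward and 0.658% downward. PTP4A3 passed the 2-fold mark downward, whereas PTP4A1 and PTP4A2 passed it in neither direction. PTP4A3 counts as measured through its control value alone, so some difference was built into its selection. Among the 12760 measured rows other than short RNAs, 211 had a higher difference than PTP4A1 and 4 had a lower one than PTP4A3. Those 4, named after their values were seen, were AMACR, HOXB8, IGFBP5 and LOXL4, all with control estimates above 10 FPKM. Of the 3328 rows with a control level within 2-fold of that of PTP4A3, itself included, 4.57% were separate and lower, and REXO1L1 alone had a smaller ratio, at 0.264 FPKM with BMH-21 against 1.62 FPKM in control.

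**Figure D2:**
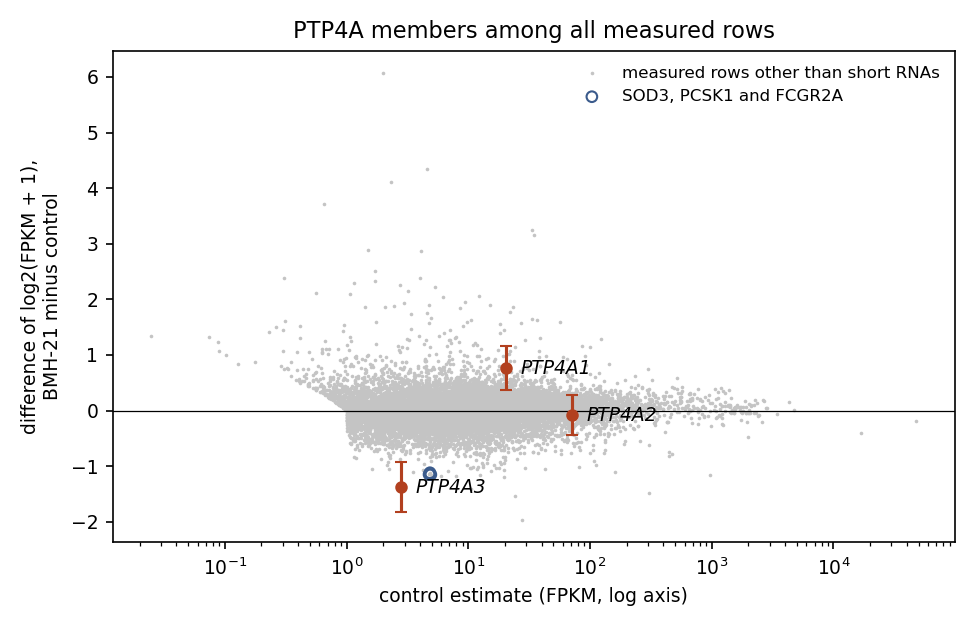
Difference of log2(FPKM + 1), BMH-21 minus control, against the control estimate in FPKM on a log axis, for measured rows other than short RNAs (grey). PTP4A members are shown with their half-width: PTP4A1 lies above 0, PTP4A2 at -0.079 and PTP4A3 near the lower edge at -1.38. SOD3, PCSK1 and FCGR2A, the rows nearest to it in difference among those with a control level within 2-fold, are circled.

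The order of the members was the same in both groups, with PTP4A2 highest, PTP4A1 next and PTP4A3 lowest, and neighbours in that order had bounds that did not overlap. In control, 91.6% of measured rows other than short RNAs had a lower estimate than PTP4A2, 69.9% a lower one than PTP4A1 and 17.8% a lower one than PTP4A3. The summed level of the family was 103 FPKM with BMH-21 and 94.4 FPKM in control. PTP4A2 made up 65.1% of that sum with BMH-21 and 75.2% in control. PTP4A1 made up 34.5% with BMH-21 and 21.8% in control, and PTP4A3 0.451% with BMH-21 and 2.98% in control. The level of PTP4A1 relative to PTP4A2 was 0.530 with BMH-21 and 0.290 in control. PTP4A2 stood 144-fold above PTP4A3 with BMH-21 and 25.3-fold above it in control. The mixture of PTP4A messages thus held more PTP4A1 and less PTP4A3 with BMH-21, while PTP4A2 stayed the main member. These ratios are of per-length levels and carry no error of their own, since the bounds of a sum are not given.

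**Figure D3:**
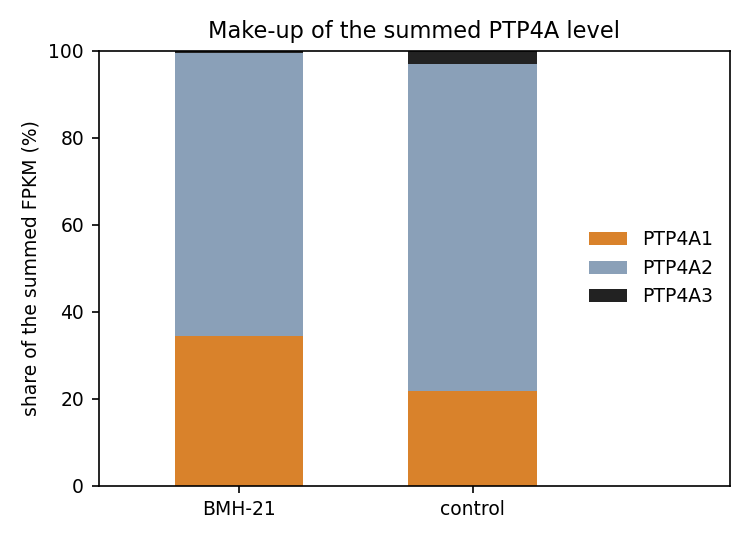
Share of the summed FPKM of the family held by each member, in percent, with BMH-21 (left) and in control (right). PTP4A1 holds 34.5% with BMH-21 and 21.8% in control, and PTP4A3 0.451% with BMH-21 and 2.98% in control.

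How far the genes can be told apart by their reads was described on GENCODE release 29 transcripts, which may differ from the authors' annotation. Of all stretches of 50 bases in the longest principal transcript of each gene, 0 occurred unchanged in another PTP4A member. PTP4A3 shared 0 of 2736 such stretches with any gene of another locus. PTP4A1 shared 26 of 2154, all with processed pseudogenes of PTP4A1, leaving out a further gene model annotated over it on the same strand. PTP4A2 shared 126 of 3872, of which 101 lay in its coding part and matched the pseudogenes PTP4A2P1 and PTP4A2P2. The RefSeq gene table (GRCh38.p14) lists 7 pseudogenes of PTP4A1, 2 of PTP4A2 and 0 of PTP4A3, and none has a row in the deposited table. How the authors handled such reads is unknown here, and its part in the values was not tested. GENCODE lists 4, 12 and 6 coding transcripts for PTP4A1, PTP4A2 and PTP4A3, which the gene-level values do not separate.

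The nearest measured genes to either side had overlapping intervals for all members, 6 of 6, as most measured rows did, of which 7.5% were separate in either direction. Around PTP4A3, SLC45A4, a sugar transporter relative, was at 2.68 FPKM with BMH-21 against 2.08 FPKM in control, and TSNARE1 was at 2.45 FPKM with BMH-21 against 2.58 FPKM in control. Their levels resembled that of PTP4A3 in control, and neither had a lower estimate by more than 1.06-fold. Of the annotated genes, 4 lie between PTP4A3 and SLC45A4 and 15 between PTP4A3 and TSNARE1. Next to PTP4A1 with 1 gene between, the PHD finger protein gene PHF3 was at 22.2 FPKM with BMH-21 against 23.0 FPKM in control. On its other side, with 8 genes between, MTRNR2L9 was at 23.2 FPKM with BMH-21 against 23.0 FPKM in control, a row that is uncertain because the gene resembles mitochondrial ribosomal RNA. LGSN, which overlaps PTP4A1 in the RefSeq table, was at 0.00881 FPKM with BMH-21 against 0.0398 FPKM in control, far below it. The long non-coding RNA gene ASTILCS overlaps PTP4A3 there but has no row in the deposited table. Further gene models that overlap PTP4A1 or PTP4A2 also lack a row. Directly next to PTP4A2, KHDRBS1, which encodes the RNA-binding protein SAM68, was at 75.2 FPKM with BMH-21 against 83.2 FPKM in control, and SPOCD1 at 1.48 FPKM with BMH-21 against 1.12 FPKM in control.

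The promoters are shown for the member that was higher with BMH-21 and the one whose intervals overlapped, so that the sequences beside these start sites can be compared. Each window runs from 250 bases before to 50 bases after a start site of RefSeq (GRCh38.p14). Of the members, 2 matched that table, PTP4A1 with 4 windows and PTP4A2 with 2, and the window richest in G and C is printed for each. Capitals mark the TATA box TATAAA, the GC box GGGCGG, the CCAAT box CCAAT and the CRE core TGACGT, each on either strand. PTP4A1 lies at chr6:63572230-63572529 on the plus strand and PTP4A2 at chr1:31938319-31938618 on the minus strand.
PTP4A1 promoter: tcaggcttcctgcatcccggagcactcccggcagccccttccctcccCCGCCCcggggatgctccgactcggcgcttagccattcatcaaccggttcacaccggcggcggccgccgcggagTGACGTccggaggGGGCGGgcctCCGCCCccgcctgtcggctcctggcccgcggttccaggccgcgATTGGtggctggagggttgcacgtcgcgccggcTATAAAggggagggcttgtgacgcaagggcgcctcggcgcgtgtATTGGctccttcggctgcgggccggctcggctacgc
PTP4A2 promoter: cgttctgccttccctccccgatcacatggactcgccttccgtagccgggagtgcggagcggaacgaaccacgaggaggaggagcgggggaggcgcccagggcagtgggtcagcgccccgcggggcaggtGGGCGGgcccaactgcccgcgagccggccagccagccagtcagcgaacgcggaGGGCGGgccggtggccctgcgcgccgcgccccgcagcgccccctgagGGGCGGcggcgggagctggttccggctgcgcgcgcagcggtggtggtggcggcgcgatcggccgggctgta
The PTP4A1 window held a TATA box 30 bases before the start, a CRE core 129 bases before it, 3 GC boxes and 2 CCAAT boxes, and 72.7% of its bases were G or C. The PTP4A2 window held 3 GC boxes and no TATA box, CCAAT box or CRE core, and 77.3% of its bases were G or C. The other windows differed. Of the 3 further PTP4A1 windows, 1 held a TATA box, 100 bases before its start, and none held a GC box, CCAAT box or CRE core. The second PTP4A2 window held 4 GC boxes and none of the other motifs. Of 35116 windows of this length in the table, 11.5% held a TATA box, 45.0% a GC box, 34.6% a CCAAT box and 7.98% a CRE core. The median share of G or C over these windows was 58.7%. The 2 printed windows, picked as the richest of their gene, thus differ from them in composition. The EGR1 site GCGTGGGCG, present in 0.795% of windows, was found in none of the 6 windows of these genes. A match or its lack describes letters in these windows and not binding.

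Genes around the family were described from lists chosen with earlier results of these data known. Together the lists held 65 measured genes, of which 1 was separate and higher, 4 were separate and lower and 60 overlapped, against 7.5% of all measured rows separate in either direction. Their median difference was 0.0062, against 0.035 over all measured rows, and it changed sign with the scaling.

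CNNM2, CNNM3 and CNNM4, the measured magnesium transport proteins that PTP4A phosphatases bind, all overlapped, with a median difference of 0.11. CNNM3 was at 5.03 FPKM with BMH-21 against 4.59 FPKM in control, CNNM4 at 3.47 FPKM with BMH-21 against 3.13 FPKM in control and CNNM2 at 4.29 FPKM with BMH-21 against 4.58 FPKM in control. Each lay within its half-width of 0. CNNM1 lay under 1 FPKM in both groups. Of 12 other measured magnesium carriers, 11 overlapped (median 0.0039, of either sign under other settings) and 1 was separate, against 7.5% of all measured rows. The separate member was NIPAL3, a relative of the NIPA magnesium transporters, at 28.9 FPKM with BMH-21 (bounds 23.7 to 34.1) against 44.6 FPKM in control (bounds 36.5 to 52.6), 1.54-fold lower with BMH-21. NIPAL2 was at 1.67 FPKM with BMH-21 against 2.38 FPKM in control. NIPAL1 was at 7.11 FPKM with BMH-21 against 5.20 FPKM in control and NIPA2 at 48.1 FPKM with BMH-21 against 37.1 FPKM in control, both overlapping. Their log2 differences of 0.387 and 0.366 were still larger than their half-widths of 0.374 and 0.364. The same held for some overlapping genes of other lists, such as RABGGTB, PTPN18 and PTPRU.

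The enzymes that attach and trim the lipid of CAAX proteins all overlapped, 7 of 7, with a median of 0.035 that took either sign under other settings. FNTB, the catalytic subunit of farnesyltransferase, was at 3.93 FPKM with BMH-21 against 2.52 FPKM in control, with bounds too wide to part the groups (1.54 to 6.32 with BMH-21 and 0.529 to 4.50 in control). The CAAX protease ZMPSTE24 was at 52.9 FPKM with BMH-21 against 42.1 FPKM in control. At the low end the carboxyl methyltransferase ICMT was at 28.5 FPKM with BMH-21 against 33.3 FPKM in control, and the farnesyltransferase subunit FNTA at 15.6 FPKM with BMH-21 against 16.9 FPKM in control.

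Other proteins reported to bind PTP4A members had 7 measured genes, all overlapping, with a median of 0.042 that turned negative under 1 setting. DDX21, a nucleolar RNA helicase reported to bind PTP4A3 in melanoma and zebrafish work, was at 111 FPKM with BMH-21 against 101 FPKM in control and so did not share the lower level of PTP4A3. It was named after its value was seen. ATF5, a transcription factor that binds PTP4A1, was at 10.6 FPKM with BMH-21 against 4.78 FPKM in control, 2.21-fold higher but with bounds that overlapped (5.91 to 15.2 with BMH-21 and 1.78 to 7.77 in control). RABGGTB, a prenyltransferase subunit that binds PTP4A2, was at 112 FPKM with BMH-21 against 84.9 FPKM in control. The keratin KRT8 was at 17.1 FPKM with BMH-21 against 17.9 FPKM in control and the membrane linker EZR at 39.2 FPKM with BMH-21 against 39.9 FPKM in control.

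Among 4 transcription factors reported to act on PTP4A genes, 1 was separate and higher, 1 was separate and lower and 2 overlapped. Over all measured rows, 7.5% were separate in either direction. The median log2 difference of the 4 factors was -0.091. EGR1, an immediate early factor reported to act on PTP4A1 in rodent cells, was at 30.7 FPKM with BMH-21 (bounds 24.1 to 37.3) against 19.2 FPKM in control (bounds 14.9 to 23.4). It was 1.60-fold higher by a narrow margin, and its intervals overlapped once the median ratio of all rows was set to 1 or quantile normalization was used. MEF2C, a factor reported to act on PTP4A3 in endothelial cells, was 1.99-fold lower, at 3.13 FPKM with BMH-21 (bounds 2.50 to 3.75) against 6.23 FPKM in control (bounds 5.03 to 7.42). STAT3, a factor activated by cytokine receptors, was at 30.7 FPKM with BMH-21 against 28.6 FPKM in control, and SNAI1 at 9.46 FPKM with BMH-21 against 11.7 FPKM in control. Whether these factors had a part in the PTP4A levels was not tested.

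Other tyrosine phosphatases were described in 4 lists. Of their 32 measured genes, 0 were separate and higher, 2 were separate and lower and 30 overlapped, a share near that of all measured rows, of which 7.5% were separate in either direction. In the group of CDC14, CDKN3 and related phosphatases, whose catalytic domains are among the nearest to those of the PTP4A family, all 6 overlapped (median log2 difference -0.0025). The cell cycle phosphatase CDC14A was at 4.52 FPKM with BMH-21 against 3.64 FPKM in control, and the membrane-spanning TPTE at 4.997 FPKM with BMH-21 against 4.79 FPKM in control. PTPMT1, a mitochondrial phosphatase, was at 14.2 FPKM with BMH-21 against 16.8 FPKM in control, and CDKN3 at 24.3 FPKM with BMH-21 against 26.3 FPKM in control.

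The CDC25 phosphatases and ACP1 all overlapped, 4 of 4, with a median of 0.041 that turned negative under 1 setting. CDC25C, which activates the mitotic kinase, was at 6.40 FPKM with BMH-21 against 7.64 FPKM in control. ACP1, the low molecular weight phosphatase, was at 58.4 FPKM with BMH-21 against 53.3 FPKM in control. CDC25B was at 43.4 FPKM with BMH-21 against 40.8 FPKM in control, and CDC25A at 16.9 FPKM in both groups.

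Of 12 measured non-receptor tyrosine phosphatases, 1 was separate, against 7.5% of all measured rows in either direction. Their median of 0.047 turned negative under 1 setting. The separate gene was PTPN9, a phosphatase of secretory vesicles, 1.66-fold lower at 10.1 FPKM with BMH-21 (bounds 8.13 to 12.0) against 16.7 FPKM in control (bounds 13.5 to 19.8). PTPN18 was at 2.33 FPKM with BMH-21 against 3.56 FPKM in control, with bounds that just overlapped. PTPN1, which acts on the insulin receptor, was at 40.4 FPKM with BMH-21 against 31.1 FPKM in control, and PTPN2 at 18.1 FPKM with BMH-21 against 14.4 FPKM in control. Of 10 measured receptor phosphatases, 1 was separate, against the same 7.5% of all rows, with a median of -0.068 that turned positive under 1 setting. PTPRZ1 was 1.75-fold lower, at 1.01 FPKM with BMH-21 (bounds 0.762 to 1.25) against 1.76 FPKM in control (bounds 1.38 to 2.14). PTPRU was at 1.34 FPKM with BMH-21 against 1.98 FPKM in control, PTPRK at 8.59 FPKM with BMH-21 against 7.37 FPKM in control and PTPRJ at 19.5 FPKM with BMH-21 against 17.6 FPKM in control. On the log2(FPKM + 1) scale, no measured phosphatase of these lists had a difference as far from 0 as that of PTP4A1 or PTP4A3. By the ratio of estimates, the 1.75-fold of PTPRZ1 was slightly larger than the 1.73-fold of PTP4A1. These contrasts are descriptive, since PTP4A1 and PTP4A3 were picked for their differences.

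**Figure D4:**
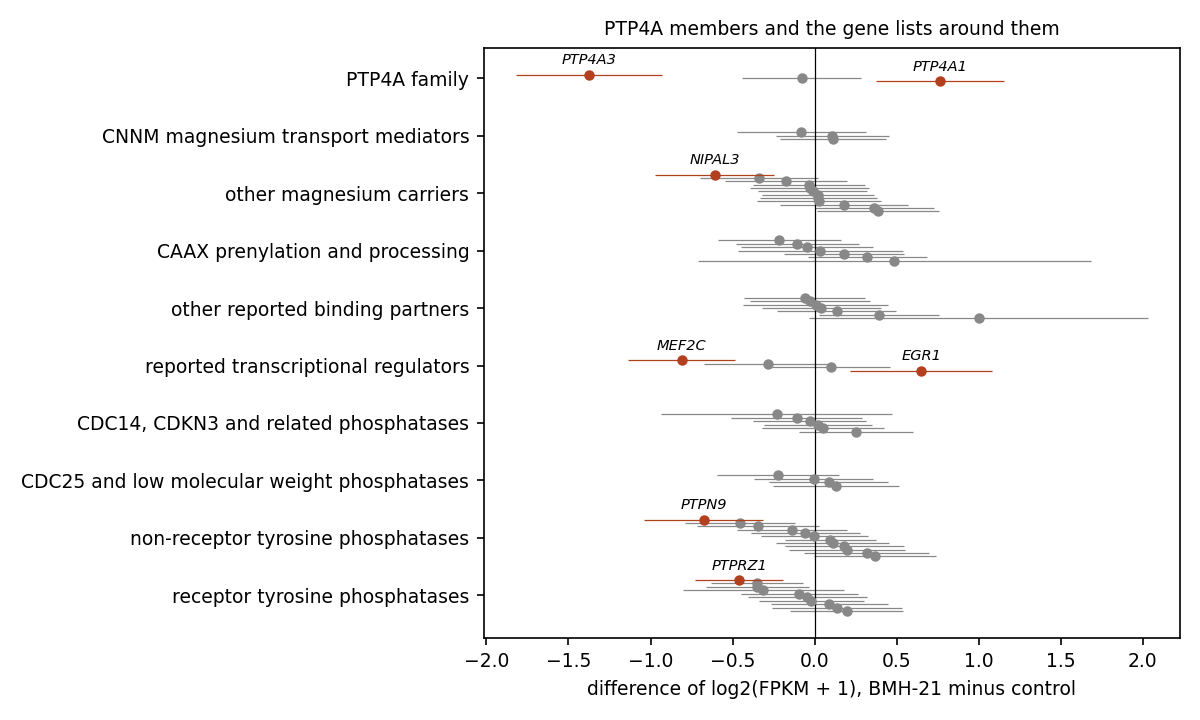
Difference of log2(FPKM + 1), BMH-21 minus control, for each measured gene of the PTP4A family and of the lists around it, with the half-width as a bar. Genes whose intervals were separate are drawn in red and named: PTP4A1 and EGR1 lie above 0, and PTP4A3, NIPAL3, MEF2C, PTPN9 and PTPRZ1 below.

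The rows most like each member were sought among single-symbol rows with a control level within 2-fold, by the nearest difference over the 2 groups. For PTP4A3 they were SOD3, an extracellular superoxide dismutase, PCSK1, a prohormone convertase, and FCGR2A, an Fc receptor. SOD3 was at 1.67 FPKM with BMH-21 against 4.93 FPKM in control, PCSK1 at 1.60 FPKM with BMH-21 against 4.77 FPKM in control and FCGR2A at 1.69 FPKM with BMH-21 against 4.85 FPKM in control. These were 2.96-fold, 2.98-fold and 2.86-fold lower, all with separate intervals and all short of the 6.03-fold of PTP4A3. The log2 differences of these rows lay 0.22 to 0.26 from that of PTP4A3 in a search of 3327 rows. By its estimates alone, PTP4A3 thus had no close match on the log2(FPKM + 1) scale, where 0 of these rows had a lower difference. Its bounds do not set it apart from SOD3, PCSK1 and FCGR2A. Their distances lay within its half-width of 0.45, and between nearest bounds it was only 2.55-fold lower. By the ratio without a pseudocount REXO1L1 was close, at 0.162 against 0.166 for PTP4A3. PTP4A1 was matched within 0.01 by EHD4 (52.6 FPKM with BMH-21 against 30.6 FPKM in control), ATP1B1 (57.7 FPKM with BMH-21 against 33.8 FPKM in control) and TRAF4 (48.3 FPKM with BMH-21 against 28.2 FPKM in control). PTP4A2 was matched by NCBP2 (46.5 FPKM with BMH-21 against 49.2 FPKM in control), MRPL43 (55.8 FPKM with BMH-21 against 59.0 FPKM in control) and YTHDF2 (51.7 FPKM with BMH-21 against 54.7 FPKM in control), as close matches are common near a difference of 0. With only 2 groups, likeness here means a similar level and difference.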

How the data were processed

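Trizol extraction and a stranded total RNA library kit (Illumina TruSeq) were used, per the labels' protocols. The authors deposited 1 table of FPKM values. TopHat2, Cuffdiff 2.0 and GRCh37 are listed in the submitters' processing notes, without roles or settings, and the annotation behind the gene rows is unknown here. With 1 estimate and bounds per group, no test was possible. The first value counted as the midpoint within a relative tolerance of 0.0001. A row was measured if it reached 1 FPKM in either group, and differences used a pseudocount of 1. Intervals were separate where 1 group's lower bound exceeded the other's upper bound. In 12 rows the estimate lay outside its bounds, and these are never counted as separate. Short RNA rows were left out by symbol prefix where stated, with RN5S added to the prefixes and host genes (HG) kept. Members and lists were chosen with earlier results of these data known. Named are all members, of each list the separate genes and up to 2 per direction with the largest differences, and the like rows and neighbours. Some genes of these lists are not reported here and were left out of the counts. Alternatives were other pseudocounts, scalings and minimum levels. Calculations used Python 3.11.15, pandas 2.3.3 and numpy 2.4.6. The differences and interval calls were also run on simulated rows with a large set change, narrow fixed bounds and no pseudocount. That checks the code only, and bounds as wide as those of PTP4A3 were not simulated.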

Additional observations from a re-analysis of the deposited data

How the results depend on the processing

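The interval calls of the 3 members held under each of 3 other scalings. The calls compare bounds without a pseudocount, so the 2 other pseudocounts could not change them. Each of these 5 alternatives was applied alone, which gave 15 log2 differences for the members. The log2 difference of PTP4A3 moved beyond its half-width with a pseudocount of 0.1, to -2.36, and the other 14 values moved by less. This follows from the low level of PTP4A3, whose estimate with BMH-21 is smaller than the pseudocount of 1. Across the lists together, the count of separate higher genes was 0 with the median ratio set to 1 and 0 under quantile normalization, because EGR1 no longer parted. The count of separate lower genes was 4 as reported and 4 under quantile normalization. It was 5 with the median ratio set to 1, and 5 with equal sums over rows other than short RNAs. No paired analysis was possible because the columns hold group estimates and bounds, and leaving out a replicate was not run for the same reason. The read totals behind the values are unknown, and the bounds of PTP4A3 with BMH-21 spanned 67.1% of its estimate to either side.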
